A study of Mus musculus with 12 samples.

Results

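The genes described here encode the machinery that brings newly made secretory proteins into the endoplasmic reticulum (ER), adds their sugar chains and loads them into vesicles bound for the Golgi. Their 40 symbols were fixed as subunits of 7 complexes, and each was looked up by symbol in a table of raw exon counts of 22618 genes. All 40 were found, all 40 had a mean of at least 1 CPM (counts scaled to library size and composition), and all 40 were among the 17142 genes that passed the filter on low counts and were tested. The libraries were RNA-seq of liver from male mice that lack both Cry1 and Cry2, the cryptochrome repressors of the circadian clock, on the C57BL/6j background. The mice were 12 to 16 weeks old, carried a conventional gut flora and were fed at night. Livers were sampled at zeitgeber times ZT02, ZT06, ZT10, ZT14, ZT18 and ZT22, with 2 libraries at each time and 12 in all. Here ZT14, ZT18 and ZT22 are called night (6 libraries) and ZT02, ZT06 and ZT10 day (6 libraries). The light schedule is not stated in the labels, and wild-type livers were not analysed here, so the values describe the double knockout alone. The labels do not state whether the libraries of a time are different mice, and each p-value therefore rests on library-to-library spread.

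Proteins bound for secretion or for membranes carry a signal sequence that is caught by the signal recognition particle (SRP) as it leaves the ribosome. The SRP receptor docks the ribosome at the Sec61 channel, the TRAP complex sits beside that channel, signal peptidase removes the signal sequence, and oligosaccharyltransferase transfers a preassembled glycan to asparagines of the growing chain. Folded cargo leaves in vesicles coated with COPII, in which the small GTPase Sar1 recruits Sec23 and Sec24 as the inner layer and Sec13 and Sec31 as the outer layer. The receptor pair of LMAN1 and MCFD2 carries coagulation factors V and VIII out of the ER. Hepatocytes secrete most plasma proteins, and this route is in heavy use in the liver.

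Library totals were 34715506 to 46074052 counts. All 8 hepatocyte markers were detected in every library, and their summed level was 95560 to 108100 CPM at night and 105500 to 132300 CPM in the day. Counts remained on Cry1 (5.71 to 13.6 CPM) and Cry2 (12.4 to 22.8 CPM), and a count per gene does not show whether the deleted exons were read. The library ZT14 replicate 2 stood apart in pancreatic acinar genes: the sum of 12 such markers was 41.9 CPM there and at most 18.3 CPM in the other 11 libraries. In bulk liver, fewer cells of a type and less RNA per cell cannot be told apart.

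The machinery as a whole was higher at night, by a small amount. The 40 genes together took 0.431% to 0.474% of all raw counts in the night libraries and 0.337% to 0.405% in the day libraries. These shares did not overlap, but they are not scaled for library composition. In scaled and centred log2 CPM, averaged over the 40 genes, night and day overlapped. There the day library ZT02 replicate 1 (0.0462) lay above the night library ZT18 replicate 1 (0.0242). Night minus day was above 0 in 36 of 40 genes (90%), against 51.2% of all tested genes, and its median was 0.25 on the log2 scale, against 0.01 over all tested genes. The day-night size was modest: the fitted range over 24 h, fitted peak divided by fitted trough, had a median of 1.29-fold over the 40 genes and 1.31-fold over all tested genes. This range has no sign and takes in library-to-library spread. Its near-equal medians therefore do not show that the 40 genes and all genes changed alike between night and day.

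In the test of a 24 h cosine and sine pattern (edgeR's quasi-likelihood test, Benjamini-Hochberg adjusted p under 0.05 over all tested genes, here "called"), 8 of 40 genes (20%) were called, against 12.0% of all tested genes. They were Sec61g, Ssr2, Ssr4, Srprb, Rpn1, Ddost, Sec13 and Sec23b, with ranges of 1.28-fold to 2.20-fold and fitted peaks from ZT15.4 to ZT20.0. In the contrast of night minus day, 9.70% of all tested genes were called, 4.80% as higher and 4.89% as lower at night (823 and 839 genes, or 1077 and 624 when scaled by total counts only). Of the 40 genes, 12 (30%) were called higher at night and 0 lower, with 0 lower by DESeq2 too. At an unadjusted p under 0.05 (edgeR) 1 of the 40, Sec24b, was lower, as were 2253 of the 17142 tested genes. The 12 called genes include the 8 above together with Sec61a1, Spcs2, Sec31a and Sec24c. Every night library exceeded every day library in 6 genes, Sec61a1, Sec61g, Ssr4, Spcs2, Stt3b and Sec13, against 1.60% of all tested genes, and the reverse held in none, against 2.10%. The test of any difference among the 6 times called 4 genes, Srp68, Srprb, Ddost and Sec23b (10% of the 40, against 4.82% of all tested genes). The number of night calls depended on single libraries. It was 5 without ZT02 replicate 2, ZT18 replicate 1, ZT18 replicate 2 or ZT22 replicate 1, when the share of all tested genes called higher was 2.34%, 1.82%, 1.81% and 2.27%. It was 6 without ZT06 replicate 2, ZT14 replicate 1 or ZT22 replicate 2, against 2.91%, 1.94% and 2.35% of all genes, and 7 without ZT10 replicate 2, against 3.17%. The 24 h calls numbered 5 without ZT06 replicate 2 or ZT14 replicate 2, against 8.74% and 6.74% of all genes. Calls for any time difference numbered 1, Srprb, without either library of ZT14 or ZT18, against 0.975% to 3.04% of all genes, and 2 without either library of ZT10 or ZT22, against 2.04% to 5.03%.

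Early night was the high time of many of these genes. The highest mean over the 2 libraries of a time fell at ZT14 in 22 of 40 genes (55%), against 18.6% of all tested genes, at ZT22 in 9 (22.5%, against 11.9%) and at ZT18 in 6 (15%, against 18.4%). The lowest mean fell at ZT10 in 16 genes (40%, against 21.7%) and at ZT06 in 13 (32.5%, against 14.9%). In 12 genes (30%, against 5.19% of all tested genes), Spcs1, Spcs2, Sec11a, Srp19, Srp68, Srprb, Stt3a, Sec31a, Sec23b, Sec24c, Sec24d and Sar1a, both ZT14 libraries stood above the other 10 libraries. The fitted 24 h peak lay between ZT12 and ZT24 in 35 of 40 genes (87.5%), against 51.3% of all tested genes, and the other 5 were Sec62, Srp9, Sec23a, Sec24b and Sar1b, none of them called. Differences in peak time between genes were not tested.

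**Figure D1:**
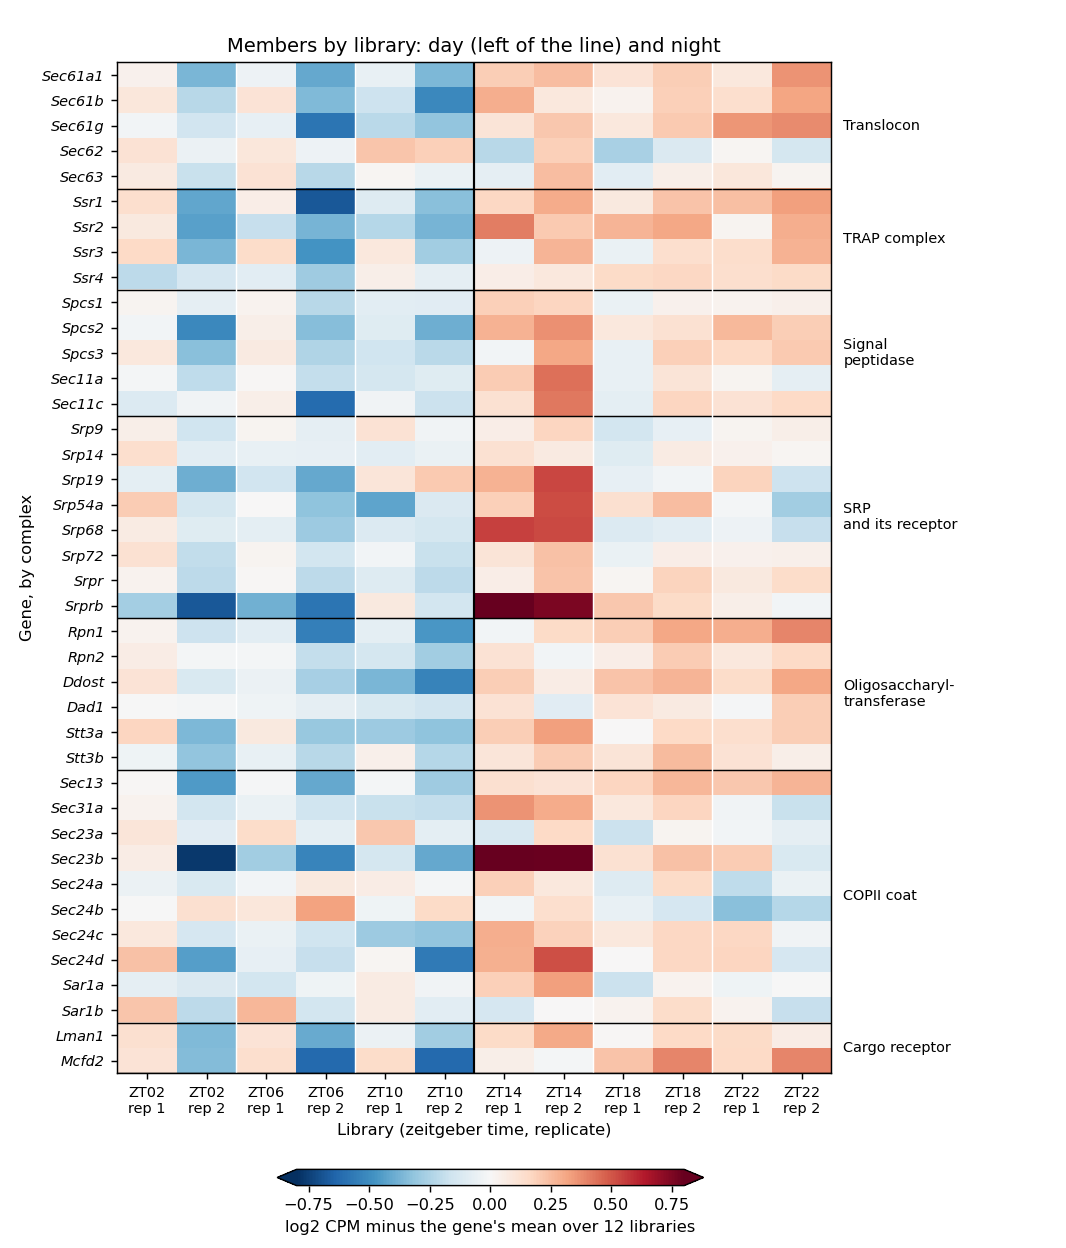
Log2 CPM of each of the 40 genes in each of the 12 libraries, centred on the gene's own mean over the libraries, with genes grouped by complex and libraries in time order. The colour scale ends at 0.8 on either side. Mean CPM is highest at ZT14 in 22 of the 40 rows, and both ZT14 libraries stand above the other 10 in 12 rows. Averaged over the 40 genes, the replicate 2 columns of ZT02, ZT06 and ZT10 are the coldest.

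The day libraries of replicate 2 stood below those of replicate 1. Replicate 2 was lower in 37 of 40 genes at ZT02, in 37 at ZT06 and in 35 at ZT10, and the median log2 differences were -0.24, -0.22 and -0.14. In 31 of 40 genes (77.5%) replicate 2 was lower at all 3 day times, against 16.7% of all tested genes, while at night this held for 1 gene at all 3 times. Replicate 2 libraries alone gave a median night minus day of 0.38 on the log2 scale, with 38 of 40 genes above 0, and replicate 1 libraries alone gave 0.12, with 31 of 40 above 0. Of these counts, only that over all 3 day times was set against all tested genes. The labels do not describe the replicate number as a shared batch.

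**Figure D2:**
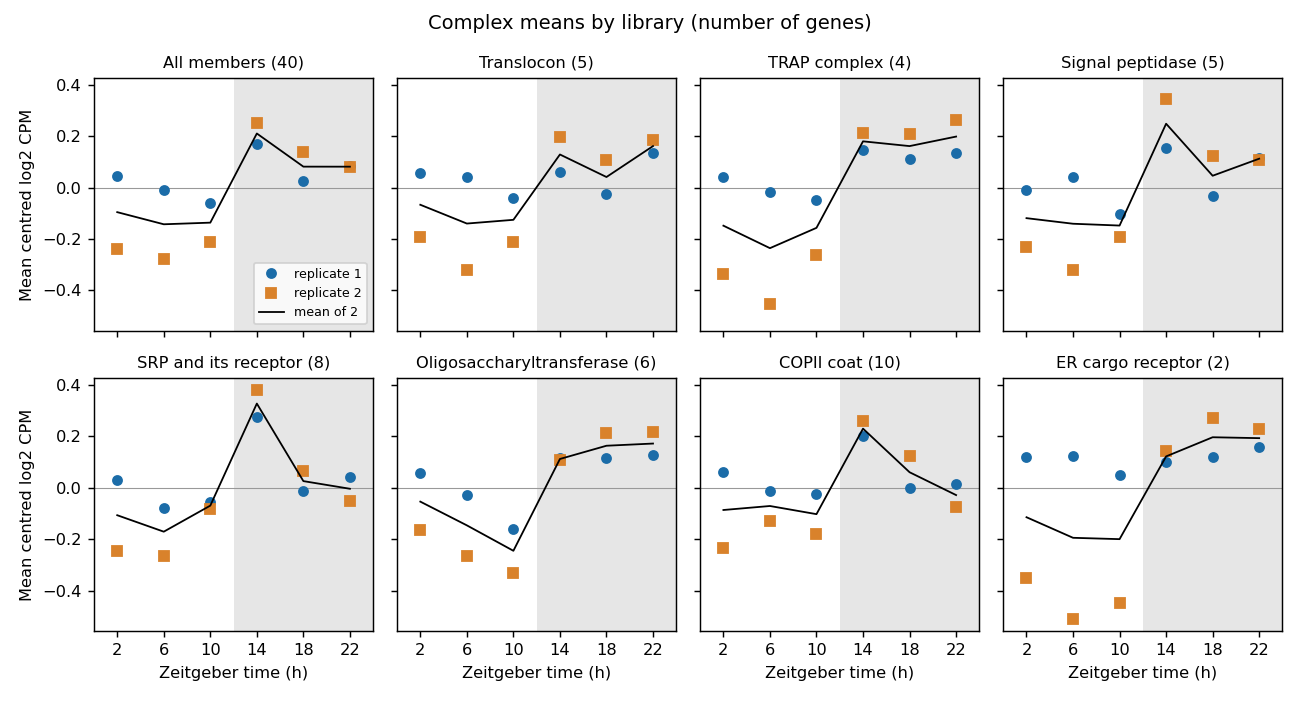
Mean of centred log2 CPM over the genes of each complex in every library, by zeitgeber time in hours, with replicate 1 as circles, replicate 2 as squares and the mean of both as a line. Shading marks ZT12 to ZT24. Over all 40 genes the replicate 2 day libraries lie at -0.21 to -0.28 and the replicate 1 day libraries at -0.06 to 0.05, and all night libraries lie above 0.

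In targeting to the membrane 1 of 8 genes was called in the 24 h test, Srprb, which encodes the beta subunit of the SRP receptor, the GTPase that anchors the receptor in the ER membrane. Srprb (chr9:103188032-103202137, minus strand, GRCm38) had 22.9 and 17.3 CPM at ZT02, 21.2 and 18.5 at ZT06, then 29.3 and 25.0 at ZT10. The night libraries had 49.9 and 46.7 at ZT14, 32.2 and 30.9 at ZT18, then 28.7 and 27.3 at ZT22. Both ZT14 libraries were well above the rest, and night and day met only at ZT22 and ZT10. Its fitted range was 2.20-fold (95% interval 1.64 to 2.95) with a peak at ZT15.4 ± 0.63 h (SE), the largest range of the 40 genes (edgeR adjusted p = 0.00456). Night exceeded day by 0.66 ± 0.08 (log2, SE; edgeR adjusted p = 0.00238), and the call held in every alternative run. In the annotation 20.7% of the exon bases of Srprb are shared on the same strand with Gm20425, a gene model that also spans Trf, the gene of plasma transferrin. Gm20425 and Trf each had a night minus day of -0.01 (log2), and the part of the shared bases in the counts of Srprb was not tested.

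None of the other 7 genes of targeting was called in the 24 h test or for night minus day. Srpr, the alpha subunit of the SRP receptor, had 167.3 to 193.2 CPM (median 178.7) at night and 142.7 to 168.3 CPM (median 148.5) in the day, a difference of 0.23 (log2) that was not called (edgeR adjusted p = 0.0732). Srp68, which with Srp72 binds the RNA core of the particle, had 41.1 and 40.6 CPM at ZT14 and 23.0 to 29.5 CPM at all other times. It was called for any time difference (edgeR adjusted p = 0.0211), not in the 24 h test (adjusted p = 0.199). Srp68 lost that call without either library of ZT14 or of ZT18, when 1 of the 40 genes, Srprb, was still called. Srp19 peaked at ZT14 too, with 17.1 and 20.5 CPM, but was not called (24 h adjusted p = 0.0591). Srp9 and Srp14, the pair that holds translation back during targeting, had ranges of 1.07-fold and 1.06-fold, and Srp72 had a night minus day of 0.13 (log2) that was not called. Srp54a, whose product recognises the signal sequence, had 3.43 to 6.64 CPM, and it has the near-identical copies Srp54b and Srp54c, so its counts are uncertain.

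At the channel, the gamma subunit rose. Sec61g (chr11:16500530-16508484) had 39.2 to 48.2 CPM (median 42.9) at night and 24.7 to 36.4 CPM (median 32.6) in the day, and no night library overlapped the day. Its range was 1.57-fold (95% interval 1.26 to 1.95) with a peak at ZT19.3 ± 0.83 h (edgeR adjusted p = 0.0215), and its highest libraries were those of ZT22, at 47.3 and 48.2 CPM. That call held without any single library and was lost when ZT02 replicate 1 and ZT06 replicate 2 were left aside together (adjusted p = 0.0752). Sec61a1 (chr6:88503579-88518905), which forms the pore itself, had 234.5 to 283.7 CPM (median 253.2) at night and 166.7 to 226.7 CPM (median 192.2) in the day, again with no overlap. The log2 difference of Sec61a1 was 0.39 ± 0.10 (edgeR adjusted p = 0.0360). Among the 12 fits that left out a library, that call held without ZT02, ZT06 or ZT10 replicate 1 and was lost in the other 9, where adjusted p reached 0.102. Sec61b, the remaining channel subunit, differed by 0.34 and missed the threshold (adjusted p = 0.0648). Neither accessory gene was called. Sec63, a partner of the chaperone BiP at the channel, had a difference of 0.08, and Sec62, which helps short proteins to enter after translation, had -0.17.

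All 4 TRAP genes had higher means at night and 2 were called. Ssr2, the beta subunit (chr3:88575876-88588419), had 57.3 to 74.9 CPM (median 68.7) at night and 41.8 to 59.7 CPM (median 45.9) in the day, with 1 day library, ZT02 replicate 1, inside the night range. Ssr2 had a range of 1.62-fold (95% interval 1.28 to 2.04), a peak at ZT17.9 ± 0.82 h (edgeR adjusted p = 0.0185) and a call in every alternative. In the annotation 12.8% of its exon bases overlap Gm10704 on the other strand. Ssr4, the delta subunit (chrX:73787028-73790830), had 79.9 to 86.4 CPM at night and 63.4 to 79.5 CPM in the day, without overlap but with a range of only 1.28-fold (adjusted p = 0.0348). The 24 h call of Ssr4 held without ZT06 replicate 1, ZT10 replicate 1 or ZT14 replicate 1 and was lost in the other 9 fits that left out a library, with adjusted p up to 0.175 over the alternatives. Its night call (log2 difference 0.24, adjusted p = 0.0272) was lost in 9 such fits too and held without ZT06 replicate 1, ZT10 replicate 1 or ZT14 replicate 2, with adjusted p up to 0.0985 over the alternatives. Ssr1 and Ssr3, the alpha and gamma subunits, differed by 0.42 and 0.22 (log2) and were not called. Their day values were spread by replicate: Ssr1 had 162.6 CPM in ZT06 replicate 1 and 98.0 CPM in ZT06 replicate 2.

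Of the 5 signal peptidase genes, none was called in the 24 h test and 1, Spcs2, was called higher at night. At an unadjusted 24 h p under 0.05 (edgeR) there was 1 of the 5, against 5407 of the 17142 tested genes. Spcs2, an accessory subunit (chr7:99837569-99863462), had 87.6 to 106.5 CPM (median 96.7) at night and 57.8 to 85.4 CPM (median 71.3) in the day, without overlap. The difference was 0.42 ± 0.10 (log2; edgeR adjusted p = 0.0260), and among the fits that left out a library it stayed called without ZT02, ZT06 or ZT10 replicate 1 or ZT14 replicate 2, with adjusted p up to 0.0771 in the other 8. Spcs3, a subunit needed for cleavage, had 89.9 to 116.0 CPM at night and 74.2 to 99.1 CPM in the day, and its difference of 0.26 was not called (adjusted p = 0.113). The catalytic subunits Sec11a and Sec11c differed by 0.21 and 0.29, and Spcs1 by 0.14. The highest libraries of Sec11a, Sec11c and Spcs3 all included ZT14 replicate 2, at 45.0, 31.5 and 116.0 CPM.

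In oligosaccharyltransferase 2 of 6 genes were called in the 24 h test, with fitted peaks late in the night. Night minus day was above 0 in all 6. Ddost, the subunit that helps to position the sugar donor (chr4:138304730-138312628), had 115.6 and 98.5 CPM at ZT02, 103.4 and 89.0 at ZT06, then 83.1 and 73.9 at ZT10. The night libraries had 122.8 and 111.5 at ZT14, 125.1 and 129.4 at ZT18, then 118.6 and 132.6 at ZT22. The level declined through the day and stayed high through the night, and only ZT02 replicate 1 reached the night range. Ddost had a range of 1.54-fold (95% interval 1.27 to 1.88) with a peak at ZT20.0 ± 0.77 h (edgeR adjusted p = 0.0179). Rpn1, the ribophorin I subunit (chr6:88084482-88105304), had 146.3 to 195.5 CPM (median 176.1) at night and 101.8 to 151.8 CPM (median 136.6) in the day. Its range was 1.61-fold (95% interval 1.30 to 1.99) and its peak at ZT19.6 ± 0.76 h (adjusted p = 0.0154), with its highest library at ZT22. The 24 h calls of Ddost and Rpn1 held without any single library. They were lost when ZT02 replicate 1 and ZT06 replicate 2 were left aside together, at adjusted p = 0.0599 and 0.0619.

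The night call of Rpn1 (log2 difference 0.43) was lost without ZT02 replicate 2 or any of the ZT18 and ZT22 libraries, with adjusted p up to 0.0765. Rpn2 and Dad1, further structural subunits, also had fitted peaks after ZT20 but were not called, with ranges of 1.25-fold and 1.16-fold. The catalytic subunits Stt3a, used during entry through the channel, and Stt3b, able to act after it, differed by 0.33 and 0.27 (log2) and narrowly missed the threshold, with night minus day adjusted p of 0.0600 and 0.0510. Stt3b had 133.7 to 154.2 CPM at night and 103.8 to 133.1 CPM in the day, with no overlap.

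**Figure D3:**
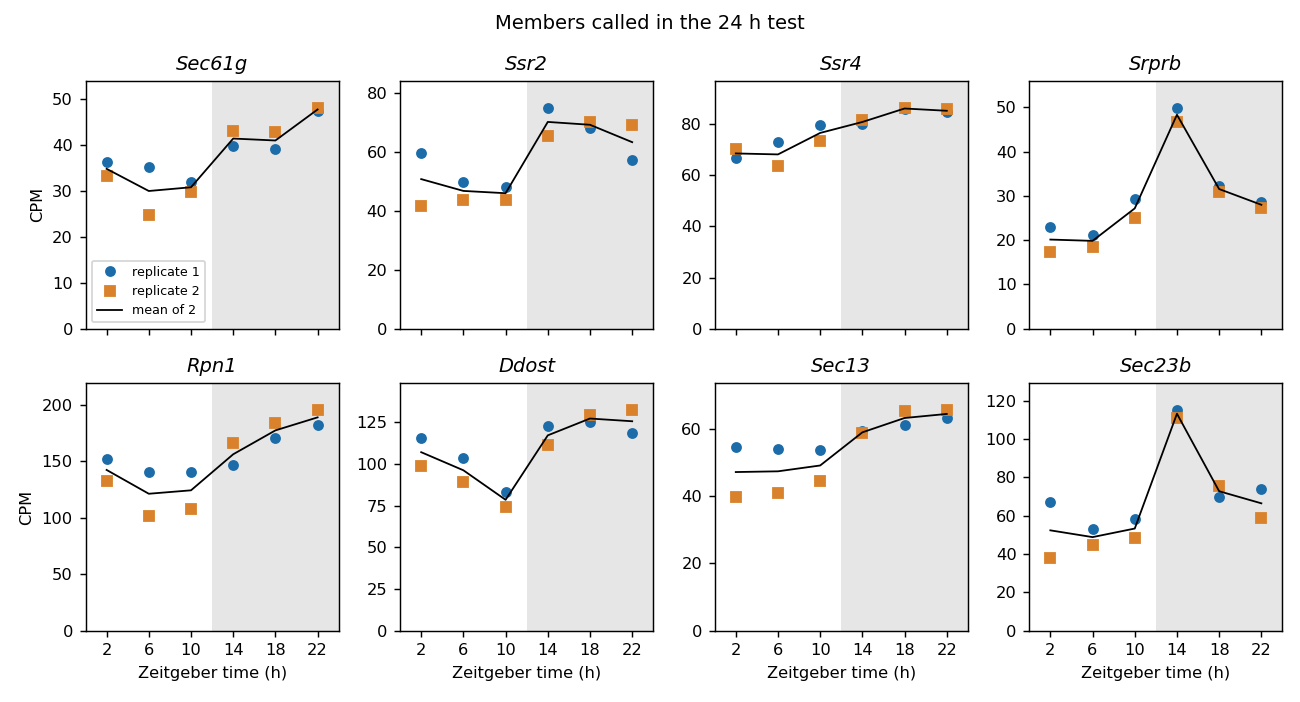
CPM of the 8 genes called in the 24 h test, by zeitgeber time in hours, with each library as a point, the mean of the 2 libraries as a line and ZT12 to ZT24 shaded. Each axis starts at 0. Srprb and Sec23b rise to a single high time at ZT14, at means of 48.3 and 113.2 CPM, while Rpn1, Ddost and Sec61g stay high to ZT22.

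Of 10 COPII genes, 2 were called in the 24 h test and 4 were called higher at night. Sec23b, 1 of the 2 Sec23 paralogs of the inner layer (chr2:144556229-144590749), had 67.0 and 37.7 CPM at ZT02, 53.1 and 44.6 at ZT06, then 58.3 and 48.3 at ZT10. The night libraries had 115.3 and 111.1 at ZT14, 70.0 and 75.6 at ZT18, then 74.0 and 59.0 at ZT22. The ZT14 libraries were far above all others, and 1 day library, ZT02 replicate 1, lay above the lowest night library. Its range was 2.01-fold (95% interval 1.30 to 3.13) and its peak ZT16.0 ± 1.06 h (edgeR adjusted p = 0.0329). The 24 h call of Sec23b was lost without ZT02 replicate 2, ZT06 replicate 2, ZT14 replicate 1 or ZT14 replicate 2, with adjusted p up to 0.113 over the alternatives. Its night minus day of 0.67 ± 0.13 (log2; adjusted p = 0.0119) stayed called in every alternative run.

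In the outer layer, Sec13 (chr6:113728062-113740743), which is also a subunit of the nuclear pore, had 58.7 to 65.7 CPM (median 62.1) at night and 39.7 to 54.6 CPM (median 49.1) in the day. The groups did not overlap, and the range was 1.45-fold with a peak at ZT18.2 ± 1.03 h (adjusted p = 0.0494). That call held without ZT02 replicate 2, ZT06 replicate 1 or ZT10 replicate 1 and was lost in the other 9 fits, with adjusted p up to 0.156 over the alternatives. Its night call (log2 difference 0.38, adjusted p = 0.0360) held without replicate 1 of ZT02, ZT06 or ZT10 and was lost in 9 fits, with adjusted p up to 0.1. Sec31a, its partner in the outer layer, had 153.7 and 146.9 CPM at ZT14, and the night libraries ranged down to 105.7 CPM, inside the day range of 105.2 to 121.9 CPM. The log2 difference of Sec31a was 0.23 (adjusted p = 0.0379) and among fits that left out a library the call held without ZT02 replicate 1, ZT06 replicate 1 or ZT14 replicate 2 and was lost in the other 9, with adjusted p up to 0.117 over the alternatives.

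The 4 Sec24 paralogs, which select cargo, gave 1 call, that of Sec24c. It had 88.9 to 111.0 CPM at night and 73.0 to 96.3 CPM in the day and was called higher at night by 0.29 (log2; edgeR adjusted p = 0.0230), although leaving out any of ZT02 replicate 2, ZT06 replicate 2, ZT14 replicate 1, ZT18 replicate 1, ZT18 replicate 2 or ZT22 replicate 1 ended that call, with adjusted p up to 0.0786. Sec24d differed by 0.31 with a wide error (SE 0.13) and was not called, its libraries running from 85.5 to 134.3 CPM at night and from 63.6 to 110.7 CPM in the day. Sec24a had a difference of 0.02 and was not called. Sec24b had 10.5 to 14.5 CPM at night and 12.9 to 16.6 CPM in the day, a difference of -0.22 that was not called (adjusted p = 0.0875). The GTPase genes Sar1a and Sar1b differed by 0.11 and -0.05 and were not called. Sar1b had the highest level per length of the 39 genes with an exon length, at 122.4 CPM per kb of exon, and Sec24b the lowest, at 2.22 CPM per kb. Sar1b and Sec24a lie next to each other on opposite strands of chromosome 11, starting at 51763687 and 51763634.

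The cargo receptor was among the most abundant parts of the set, and neither gene was called. Lman1 had 358.1 to 438.4 CPM (median 395.9) at night and 268.9 to 389.1 CPM (median 318.4) in the day, the highest mean CPM of the 40 genes at 359.3. Mcfd2 had 209.7 to 278.4 CPM (median 243.0) at night and 137.7 to 234.5 CPM (median 197.6) in the day. The differences were 0.27 ± 0.11 for Lman1 and 0.36 ± 0.16 for Mcfd2 (log2, SE; edgeR adjusted p = 0.152 and 0.171). In the day Mcfd2 separated by replicate number, with 228.8, 233.2 and 234.5 CPM in replicate 1 and 166.4, 137.7 and 137.9 CPM in replicate 2 at ZT02, ZT06 and ZT10.

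**Figure D4:**
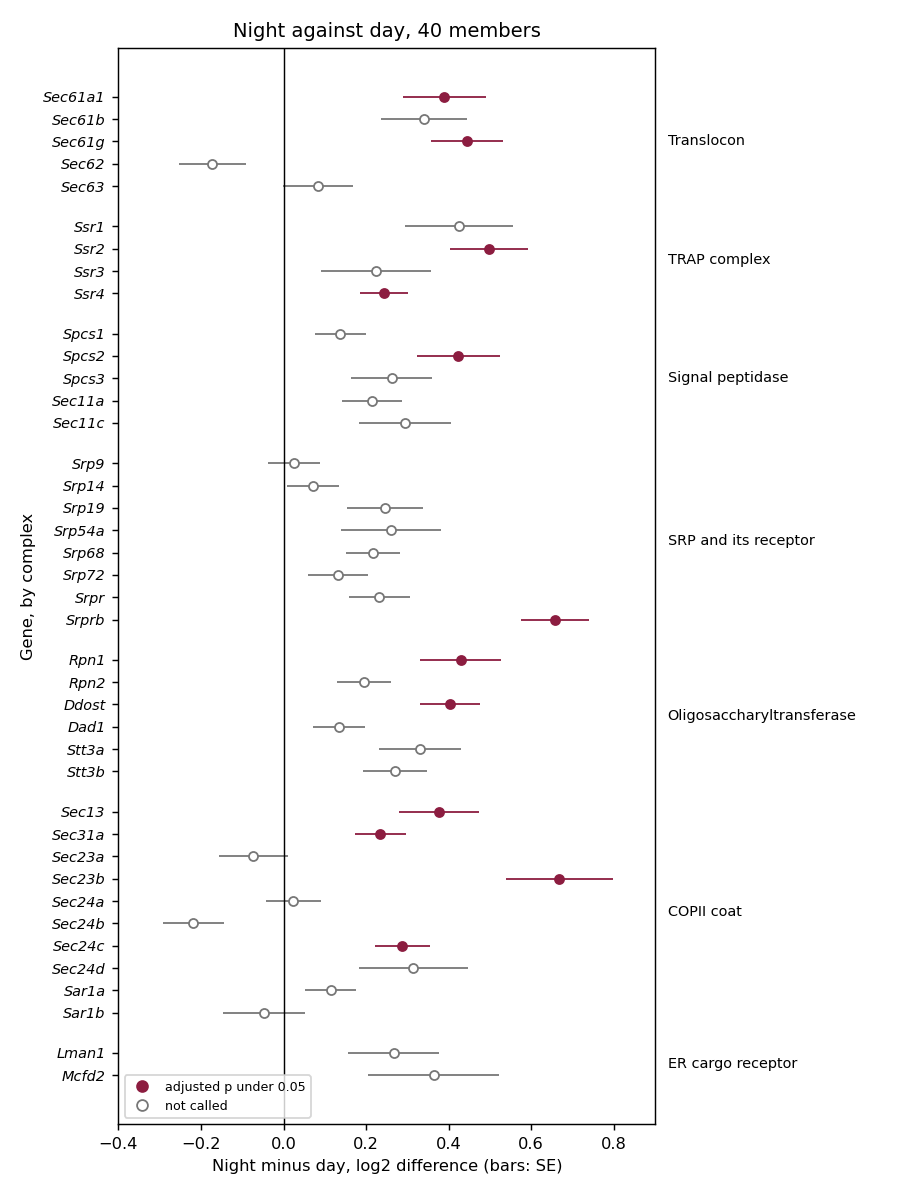
Night minus day on the log2 scale for each of the 40 genes, grouped by complex, from the fit of 6 time points. Bars are SE, filled points are genes called at an adjusted p under 0.05 and open points are not called. Srprb and Sec23b are the farthest to the right at 0.66 and 0.67, and 4 genes, Sec62, Sec23a, Sec24b and Sar1b, lie below 0.

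Counted by complex, the genes called in the 24 h test and the genes called higher at night were 1 and 2 of 5 at the translocon, 2 and 2 of 4 in TRAP, 0 and 1 of 5 in signal peptidase, 1 and 1 of 8 in SRP and its receptor, 2 and 2 of 6 in oligosaccharyltransferase, 2 and 4 of 10 in COPII, and 0 and 0 of 2 in the cargo receptor. Over all tested genes these shares were 12.0% and 4.80%, and 1 of 8 lies near the first of them. The median night minus day on the log2 scale ran from 0.17 in COPII and 0.22 in SRP and its receptor to 0.33 in TRAP and 0.34 at the translocon. No complex is shown to differ from another, since differences between complexes were not tested.

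Paralogs within a complex were compared by the log2 ratio of their counts within each library, which needs no scaling between libraries. The ratio of Sec23b to Sec23a was -0.88 to 0.14 (mean -0.45 ± 0.36, SD) in the 6 night libraries and -1.51 to -0.87 (mean -1.21 ± 0.21, SD) in the 6 day libraries. Sec23b thus had fewer counts than Sec23a in all day libraries and more only in a ZT14 library. The difference of the ratio was 0.76 (95% interval 0.40 to 1.15), with an exact two-sided permutation p of 0.00433 (adjusted over 6 pairs, 0.026). The smallest p this test allows is 0.00216. The test and its interval treat libraries of different times as replicates of night or day. The night ratios varied with time, at 0.14 and -0.20 at ZT14 and -0.60 and -0.88 at ZT22. With ZT02 replicate 2 and ZT06 replicate 1 left aside together the difference was 0.67 and was not called (adjusted p = 0.114, exact permutation). Sec23a itself had 101.2 to 127.5 CPM at night and 107.1 to 132.6 CPM in the day and was not called.

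None of the other 5 pairs passed the adjusted threshold of the exact permutation test. Sec24a to Sec24b differed by 0.24 (95% interval 0.06 to 0.41, adjusted p = 0.0519). Without ZT10 replicate 1, ZT14 replicate 2 or ZT18 replicate 1 that pair passed, with a difference of 0.27 to 0.28 (adjusted p = 0.039 by the same exact test). The difference was -0.15 (-0.46 to 0.17) for Sar1b to Sar1a, 0.07 (-0.12 to 0.27) for Stt3a to Stt3b, 0.09 (-0.12 to 0.32) for Sec11c to Sec11a and 0.04 (-0.21 to 0.30) for Sec24d to Sec24c. Each of these intervals includes 0 and also differences of 0.27 or more in size, so equal courses of the paralogs are not shown.

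**Figure D5:**
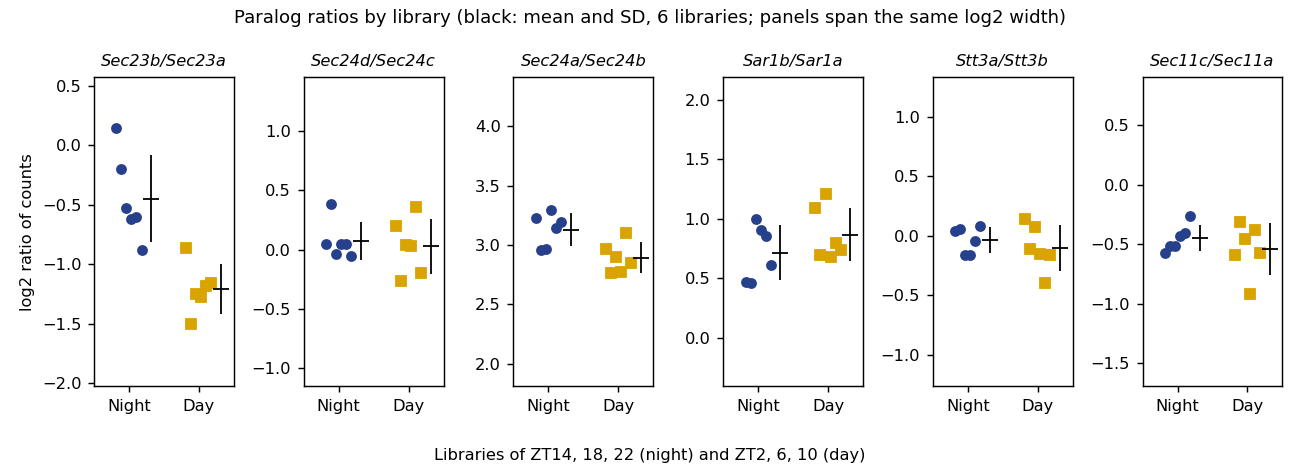
Log2 ratio of the counts of 6 paralog pairs in each library, night left and day right, with the mean and SD of the 6 libraries in black and a separate axis of equal width for each pair. The Sec23b to Sec23a ratio averages -0.45 at night and -1.21 in the day, while the other pairs overlap more.

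Promoters are shown for Srprb and Sec23b, which had the largest changes, and for Srpr and Sec24d, which were chosen after the motif search as the 2 genes with TGACGTG. Neither Srpr nor Sec24d was called. The windows are the 250 bases before the start given by RefSeq on GRCm38.p6, read 5′ to 3′ on the gene's strand. Capitals mark TGACGTG, the core of an element bound by the stress factors ATF6 and XBP1. Srprb is chr9:103202066-103202315 (minus strand), Srpr chr9:35210953-35211202 (plus strand), Sec23b chr2:144555979-144556228 (plus strand, the first of 2 starts) and Sec24d chr3:123267246-123267495 (plus strand).
Srprb: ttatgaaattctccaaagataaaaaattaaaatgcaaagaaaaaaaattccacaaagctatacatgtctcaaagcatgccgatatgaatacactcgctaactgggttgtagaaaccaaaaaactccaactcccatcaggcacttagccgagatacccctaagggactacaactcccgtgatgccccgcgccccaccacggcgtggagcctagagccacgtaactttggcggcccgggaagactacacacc
Srpr: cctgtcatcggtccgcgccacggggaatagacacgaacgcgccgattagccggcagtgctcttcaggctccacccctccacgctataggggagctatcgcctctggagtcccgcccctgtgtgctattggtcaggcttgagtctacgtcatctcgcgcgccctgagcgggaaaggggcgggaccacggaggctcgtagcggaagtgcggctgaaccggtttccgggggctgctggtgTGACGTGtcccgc
Sec23b: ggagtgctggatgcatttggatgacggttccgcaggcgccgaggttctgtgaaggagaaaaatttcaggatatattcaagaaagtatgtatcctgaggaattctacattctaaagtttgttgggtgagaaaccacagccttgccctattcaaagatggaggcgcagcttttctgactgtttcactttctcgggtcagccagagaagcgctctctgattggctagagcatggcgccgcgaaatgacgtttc
Sec24d: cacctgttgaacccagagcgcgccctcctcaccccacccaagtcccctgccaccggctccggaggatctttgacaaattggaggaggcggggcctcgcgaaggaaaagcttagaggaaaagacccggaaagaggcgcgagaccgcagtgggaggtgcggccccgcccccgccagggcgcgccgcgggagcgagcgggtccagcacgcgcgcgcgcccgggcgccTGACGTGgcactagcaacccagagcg

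TGACGTG stands at -13 to -7 in Srpr and at -26 to -20 in Sec24d, and neither Srprb nor Sec23b holds it in these letters. A promoter was given for 33 of the 40 genes, and both strands were searched. TGACGTG was present in 2 of 33 genes (6.06%) and in 2.49% of the 12027 genes of the table with a promoter. The ER stress element (CCAAT, then 9 bases, then CCACG) was in 0 of 33 and in 0.166% of all, and its second form (ATTGG, 1 base, then CCACG) in 0 of 33 and in 0.0582% of all. The E-box CACGTG, the site bound by CLOCK and BMAL1, was in 4 of 33 (12.1%: Mcfd2, Sar1a, Sec62 and Ssr1) and in 9.07% of all. None of those 4 genes was called in the edgeR tests. A match describes letters in a short window and not binding.

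Genes of the ER are known for patterns of 12 h in mouse liver, and such a component was tested beside the 24 h terms. The edgeR test called 0 of the 40 genes and 0% of all tested genes, and the smallest adjusted p among the 40 was 0.584. At an unadjusted p under 0.05 there were 3 of the 40, Srp54a, Srp68 and Sec31a, and 1358 of all tested genes. DESeq2 called 0 of the 40 and 38 genes in all. In simulated counts the edgeR test recovered 8.96% of 12 h patterns of 1.5-fold range and 41.8% of those of 2-fold range. Those patterns were placed in genes drawn at random from all tested genes, at any level of expression. Recovery at the levels of the 40 genes was not simulated. The lack of calls does not show that small 12 h patterns are absent.

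The wider pathway was read from 8 further lists, whose counts stand against 12.0% of all tested genes in the 24 h test, 4.80% higher and 4.89% lower at night. The ER chaperone list also held Syvn1, which is not a chaperone. Of the 16 genes on that list, 11 were called in the 24 h test and 10 were called higher at night. Their median night minus day was 0.69 (log2) and their median range 2.07-fold. Creld2 had the largest range, 9.65-fold, with 104.4 ± 52.5 CPM at night and 20.8 ± 4.85 CPM in the day (SD over 6 libraries each, edgeR adjusted p = 0.00177). Syvn1, the ubiquitin ligase of ER-associated degradation, had a range of 3.81-fold (adjusted p = 0.00247). Among 12 genes of glycan trimming and lectin folding, 3 were called in the 24 h test and 4 higher at night. The smallest adjusted p were those of Mogs, the glucosidase that starts trimming, at 1.77-fold (adjusted p = 0.00317) and Pdia3, a disulfide isomerase for glycoproteins, at 1.80-fold (adjusted p = 0.0161). The largest range of that list was 2.12-fold, in Calr, the lectin chaperone calreticulin (adjusted p = 0.0213), named after its value was seen.

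Upstream of the transfer step, 3 of 22 genes of lipid-linked oligosaccharide synthesis were called in the 24 h test, near the share of all genes, 4 higher and 1 lower at night. Alg12, a mannosyltransferase, had 12.8 ± 3.02 CPM at night and 6.64 ± 0.60 CPM in the day (SD) and a range of 2.47-fold (edgeR adjusted p = 0.00482), and Alg8, a glucosyltransferase, had a range of 1.61-fold (adjusted p = 0.0244). The gene called lower at night was Srd5a3, which makes dolichol (-0.46, log2), named after its value was seen. Of 10 further tested subunits of the translocon and oligosaccharyltransferase, 1 was called in the 24 h test, Krtcap2 at 1.45-fold (adjusted p = 0.0122), and 3 were called higher at night. Ost4 followed with an adjusted p of 0.0529.

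Of 21 COPII regulators, 6 were called in the 24 h test, 5 higher and 2 lower at night. Tmed9, a cargo receptor of the p24 family, had a range of 1.71-fold (edgeR adjusted p = 0.00791), and Preb, the exchange factor that loads Sar1 with GTP, a range of 1.61-fold (adjusted p = 0.0121). The 2 lower genes were Mia3, listed as MIA3, and Mia2, which organise exit sites for large cargo. They had night minus day values of -0.46 and -0.34 (log2; adjusted p = 0.00898 and 0.0324) and are named after their values were seen. Of 14 COPI and KDEL receptor genes, which bring escaped ER proteins back, 3 were called in the 24 h test and 3 higher at night, with Copg at 1.70-fold (adjusted p = 0.0216). Copg2 had a range of 1.42-fold (adjusted p = 0.0315) and a peak at ZT2.68.

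Of 15 tested genes that insert tail-anchored and multispanning proteins (EMC and GET), 1 was called in the 24 h test. It was Ubl4, at 1.33-fold (edgeR adjusted p = 0.0178). Wrb was next in that test, at an adjusted p of 0.152. For night minus day 0 were called. There 3 were higher and 0 lower at an unadjusted p under 0.05 (edgeR), against 2310 and 2253 of the 17142 tested genes. Of 10 regulators of the unfolded protein response, 3 were called in the 24 h test and 2 higher at night. Ddit3, which encodes CHOP, had a range of 2.10-fold (adjusted p = 0.0228) and Atf6b one of 1.53-fold (adjusted p = 0.0297). Xbp1 at the level of the whole gene was not called (adjusted p = 0.289), and gene counts do not separate its spliced form.

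Other secretory cells were examined by marker sums, since they express the same machinery. The plasma cell sum of 7 genes was 221.7 to 345.6 CPM at night and 197.5 to 320.2 CPM in the day, and the Kupffer cell sum of 7 genes was 244.4 to 394.7 CPM at night and 292.6 to 451.0 CPM in the day. The sinusoidal endothelium sum of 8 genes was 476.9 to 551.4 CPM at night and 495.0 to 640.9 CPM in the day. The night and day ranges of each of these lists overlap, as they do for stellate cells, cholangiocytes, lymphocytes and erythroid cells. The ZT14 libraries stood apart in lymphocyte markers, with sums of 1.50 and 1.95 CPM against 3.38 to 5.64 CPM in the other 10 libraries. Their erythroid sums were 326.0 and 292.9 CPM, against 117.2 to 273.0 CPM in 9 of the other libraries and 377.3 CPM in ZT02 replicate 1. The part of these cells in the ZT14 values was not tested. The acinar sum without Cela1, which liver also expresses, was 29.1 CPM in ZT14 replicate 2 and 0.334 to 4.46 CPM in the other 11 libraries. Without that library 5 of the 40 genes were called in the 24 h test, against 6.74% of all genes, and 10 higher at night, against 4.51%. Of the 40 genes, 15 were lower in ZT14 replicate 2 than in ZT14 replicate 1, and the median log2 difference was 0.12 with replicate 2 higher. Srprb, Sec23b and Srp68 were among those 15, and Sec24d (134 CPM in replicate 2, 115 CPM in replicate 1), Sec11a (45.0 and 38.1 CPM) and Srp19 (20.5 and 17.1 CPM) were not. The part of acinar RNA in these values was not tested.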

How the data were processed

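Liver RNA-seq of 12 libraries was analysed, and library time and replicate number came from the labels. The authors deposited a table of exon counts, in whole numbers that had not been normalized. Alignment with STAR 2.4.0i to mm10 is named in the submitters' processing notes, while the annotation, the counter and whether it used strand are not given in the sources used here. Positions and exon lengths came from GENCODE M21 (GRCm38) and promoter windows from RefSeq (GRCm38.p6). The 40 genes, the gene lists and the tests were chosen with earlier results of these data known.

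Models were fitted by edgeR 4.0.16 in R 4.3.3 with its quasi-likelihood functions glmQLFit and glmQLFTest, after TMM scaling and a filterByExpr filter (counts of 10 in a time point, 15 in total), and p-values were adjusted by Benjamini-Hochberg over 17142 genes. The 24 h test used cosine and sine terms, and night minus day and any time difference came from a fit of 6 time points. Ranges, peak times and their errors came from least squares on log2 CPM (prior count 2, 9 residual degrees of freedom), and the SD of a night or day mean covers 3 times. Paralog ratios (counts plus 1) were tested by exact permutation of libraries between night and day regardless of time point, with intervals by inverting that test. A count of 0 allows up to 0.0864 CPM in the smallest library (3 counts), counting error only. The 2 libraries of a time differed beyond counting error (chi-square of 16.8 to 100.5 per degree of freedom, scaled by library totals only). That value does not show whether they came from different mice. Same-numbered libraries deviated together at some times and not at others (correlations of their deviations from -0.222 to 0.501 over 15 pairs of times, 0.501 for ZT02 with ZT06), so numbers were not taken as pairs. Exons of 11 of 39 genes with a model overlap another gene of the table, 4 of them over more than 10% of their bases (Srprb, Spcs1, Ssr2 and Sec62), and their counts are uncertain. DESeq2 1.42.0, limma-voom (limma 3.58.1), other scalings, no filter, a replicate block and leaving out libraries were alternatives. In each complex up to 4 genes called in the 24 h test, or else the 2 of highest CPM, all paralog pairs and the 2 smallest adjusted p of each further list were named with values. Other members are named where a call or a count turned on them, after their values were seen. The scripts were tested on simulated data.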

Additional observations from a re-analysis of the deposited data

Results flagged for a closer look

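Over the 40 genes and 6 paralog ratios, 92 groups of 6 libraries were examined for a library apart from the other 5 by Dixon's ratio of gap to range, a test that chance passes in about 1 of 20 groups. A total of 2 groups passed. Srp14, which encodes an SRP subunit, had 24.7 CPM in the day library ZT02 replicate 1, where the nearest other day library had 21.6 CPM and the lowest 21.1 CPM. The log2 ratio of Sec24d to Sec24c was 0.382 in the night library ZT14 replicate 2, where the nearest other night library had 0.0498 and the lowest -0.0554. That library is also the one with the raised acinar sum, and without it night minus day of this ratio was -0.0174.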

How the results depend on the processing

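Night minus day was above 0 in 35 to 37 of the 40 genes under every alternative, with a median of 0.20 to 0.31 (log2), and no gene was called lower at night in any of them. The number of calls moved, and brackets give the share of all tested genes called. In the 24 h test 8 genes were called (12%), against 13 with DESeq2 (19.9%) and 15 with total counts only (13.6%). It was 2 when ZT02 replicate 1 and ZT06 replicate 2 were both left out (3.2%), and 5 to 12 without 1 library (6.74% to 12.5%). For night minus day 12 were called higher (4.8%), against 21 with total counts only (6.28%). Without 1 library there were 5 to 17 (1.81% to 4.51%). For any time difference 4 were called (4.82%), against 11 with DESeq2 (14.8%) and 8 with total counts only (5.41%). Without 1 library there were 1 to 5 (0.975% to 5.03%). Total counts only moved the all-gene median from 0.01 to 0.04 and the split of all genes called higher and lower at night from 823 and 839 to 1077 and 624. With the replicate number as a block 8, 13, 4 and 0 genes were called in the 24 h, night, any time and 12 h tests. The shares of all tested genes were then 11.1%, 4.64% (higher at night), 4.52% and 0.00583%. The block thus changed no count of the 40 genes by over 1.5 times. The Sec23b to Sec23a ratio was 0.67 (exact permutation adjusted p = 0.114) without ZT02 replicate 2 and ZT06 replicate 1, and 0.64 to 0.85 without 1 library. Sec24d to Sec24c turned to -0.025 without ZT02 replicate 2 and ZT06 replicate 1 and ran from -0.0174 to 0.111 without 1 library. Sec11c to Sec11a turned to -0.0178 without ZT02 replicate 1 and ZT06 replicate 2, and Sec24a to Sec24b ran from 0.20 to 0.28 without 1 library. Night minus day changed sign without 1 library for Srp9 (-0.00897 to 0.0635), Sec24a (-0.0217 to 0.0646) and Sar1b (-0.115 to 0.0333), none of them called. The causes were not tested. The 2 libraries of a time differed by 16.8 to 100.5 chi-square units per degree of freedom, a spread beyond counting error.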
